A study of Mus musculus with 9 samples.

Results

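Prl2c2 and Prl2c3 are mouse proliferin genes, and they make up 2 of the 35321 genes in the deposited expression table. Both were taken by their symbols, and both were proposed because their values already stood out between digoxin and vehicle in these data. Their levels and differences are therefore given as a description, with no test. The samples were 9 tumours that grew under the skin after injection of LLC cells, a Lewis lung carcinoma line from C57BL/6 mice, into the flank of C57BL/6 males of 4 to 5 weeks. From day 5 the mice received digoxin at 0.1 mg/kg (3 samples), digoxin at 1 mg/kg (3 samples) or PBS as vehicle (3 samples) into the peritoneal cavity. Digoxin is a cardiac glycoside that blocks the Na,K-ATPase, the pump that moves sodium out of cells and potassium in. The model is a single tumour line in a whole tumour, so host cells are part of each sample. Poly(A) RNA was sequenced and the values are FPKM, reads scaled to gene length and to library depth.

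Proliferins are secreted glycoproteins of the prolactin family. In the mouse they are best known from trophoblast giant cells of the placenta, and from cultured fibroblast lines in which serum and growth factors induce them, hence the older name mitogen-regulated protein. They bind the cation-independent mannose 6-phosphate receptor, encoded by Igf2r, and stimulate endothelial cells to migrate and form vessels. The promoter of a proliferin gene was one of the early models for the transcription factor AP-1, a dimer of Fos and Jun proteins, and for its interplay with the glucocorticoid receptor.

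The FPKM values equal whole reads divided by gene length and library depth, and the lengths that fit them were those of the GENCODE M21 annotation of GRCm38 for 96.6% of 9622 well-read genes. Positions are therefore given in that build, although the submitters' processing notes name GRCh38. Prl2c2 (ENSMUSG00000079092.4) lies on the minus strand at chr13:12996125-13005383 and Prl2c3 (ENSMUSG00000056457.6) on the minus strand at chr13:12790816-12800079, each with 5 exons in its main transcript. Together they span 214.6 kb, with 0 annotated protein-coding genes between them. Prl2c5 (ENSMUSG00000055360.13), another proliferin gene, lies on the plus strand at chr13:13182715-13191923.

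The coding sequences of Prl2c2 and Prl2c3 differed at 3 of 672 bases, an identity of 99.6%. Counted from the first base of the start codon, with the base of Prl2c2 first, the differences were T14C, C200A and T319G, in codons 5, 67 and 107. The coding sequence of Prl2c5 was 96.1% identical to that of Prl2c2 and 96.0% to that of Prl2c3. The stretch from coding base 185 to 334, which has the length of 1 read, shows what separates the genes. Capitals mark the bases that are not the same in Prl2c2 and Prl2c3 and, in the Prl2c5 line, the bases that differ from Prl2c3.
Prl2c2: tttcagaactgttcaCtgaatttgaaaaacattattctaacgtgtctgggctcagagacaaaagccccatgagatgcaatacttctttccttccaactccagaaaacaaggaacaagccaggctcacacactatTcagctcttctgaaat
Prl2c3: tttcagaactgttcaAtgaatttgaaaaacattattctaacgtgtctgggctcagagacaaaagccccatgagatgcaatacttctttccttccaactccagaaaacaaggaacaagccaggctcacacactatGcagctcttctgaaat
Prl2c5: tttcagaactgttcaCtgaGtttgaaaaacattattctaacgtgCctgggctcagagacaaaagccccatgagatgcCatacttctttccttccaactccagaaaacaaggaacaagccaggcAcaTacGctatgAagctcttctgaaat

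A read from coding bases 404 to 553, by contrast, cannot tell Prl2c2 from Prl2c3, because their sequences there are the same. The matching stretch of Prl2c5 has 8 differing positions, 6 of them missing bases.
Prl2c2 and Prl2c3: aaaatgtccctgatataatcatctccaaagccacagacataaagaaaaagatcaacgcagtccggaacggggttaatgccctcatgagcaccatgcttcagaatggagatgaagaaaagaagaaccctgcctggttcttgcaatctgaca
Prl2c5: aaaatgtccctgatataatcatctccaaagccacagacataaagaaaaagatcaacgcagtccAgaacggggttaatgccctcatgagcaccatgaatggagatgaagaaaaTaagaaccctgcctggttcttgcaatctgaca

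Over the whole main transcripts, 353 of the 693 possible 150-base windows of Prl2c2 (50.9%) were found unchanged in Prl2c3, and the same 353 made up 49.9% of the 708 windows of Prl2c3. Some of them also occur in Gm7040, a proliferin pseudogene. In Prl2c3 the shared windows fell in 2 runs, bases 82 to 266 and bases 387 to 852 of the transcript, so a read from most of the 3′ part of the RNA would fit both genes. Of the 695 windows of Prl2c5, 0 were found in another gene. The lengths behind the FPKM values were 1090 bases for Prl2c2 and 1360 for Prl2c3, against main transcripts of 842 and 857 bases. Bases outside the main transcripts were not searched, and reads came in pairs. The shared windows are thus not the share of counted reads that fit both genes. How reads that fit both genes were counted is not given in the sources used here. Their assignment can move reads between Prl2c2 and Prl2c3, while the sum of the genes depends less on it. The levels below are thus given for each gene as deposited and also for the pair.

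**Figure D1:**
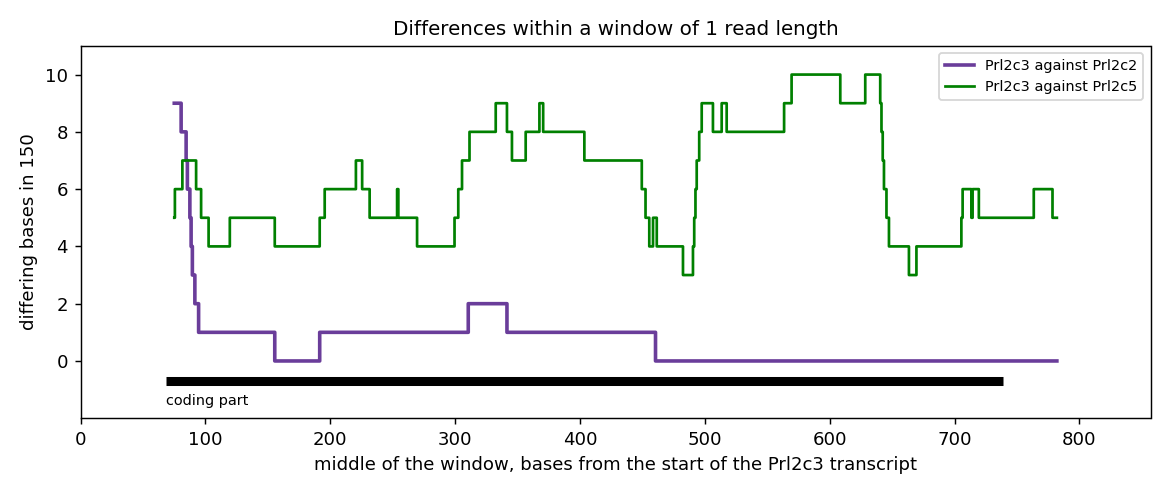
Differing bases (vertical axis) between Prl2c3 and Prl2c2, and between Prl2c3 and Prl2c5, in each 150-base window along the Prl2c3 main transcript (horizontal axis, bases from its start, with the coding part as a black bar). Against Prl2c2 the line lies at 0 in the shared runs and at most at 9 at the 5′ end, while against Prl2c5 it stays between 3 and 10. The last 5 windows run past the annotated end of Prl2c2 and are compared over the bases both have.

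The region upstream of the genes was read from RefSeq (GRCm38.p6), which matched Prl2c3 and Prl2c5, as the 250 bases that end just before the start RefSeq gives. Prl2c2 was not matched. The Prl2c3 window is chr13:12800080-12800329 on the minus strand and the Prl2c5 window chr13:13182466-13182715 on the plus strand, where its last base is the first of the GENCODE M21 gene. They are shown because the AP-1 genes are described with the members, and the capitals mark the AP-1 motif TGANTCA and the TATA motif TATATAA.
Prl2c3: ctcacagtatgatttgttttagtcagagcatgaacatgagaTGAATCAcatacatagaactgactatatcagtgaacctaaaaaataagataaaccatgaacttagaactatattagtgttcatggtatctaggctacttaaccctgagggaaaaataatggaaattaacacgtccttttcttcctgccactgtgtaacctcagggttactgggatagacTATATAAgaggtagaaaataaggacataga
Prl2c5: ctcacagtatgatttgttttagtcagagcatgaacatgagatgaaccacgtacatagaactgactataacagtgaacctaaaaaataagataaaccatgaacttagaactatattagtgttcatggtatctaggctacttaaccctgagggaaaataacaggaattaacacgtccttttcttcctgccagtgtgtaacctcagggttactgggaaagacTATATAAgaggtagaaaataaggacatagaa

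The 2 upstream windows were 96.4% identical, with 6 mismatches and 3 gap columns in 251. The AP-1 match TGAATCA of Prl2c3 began 209 bases before the RefSeq start, and the aligned bases of Prl2c5 read TGAACCA, which is no match. TATATAA began 30 bases before the RefSeq start of Prl2c3 and 31 bases before that of Prl2c5. Searched on both strands, TGANTCA was present in 6.75% of 32851 upstream windows of this length, TATATAA in 3.04% and the palindromic glucocorticoid receptor motif in 0.387%, the last in neither gene. A match is a description of the letters and does not show that a factor binds there.

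The library depths behind the FPKM values were 40517062 to 43319883 reads with digoxin and 48649867 to 51810956 reads with vehicle, so that 1 read of Prl2c2 or Prl2c3 is a small fraction of 1 FPKM. On the first principal component (69.4% of the variance) 4 digoxin libraries scored 35.7 to 37.9 and the vehicle libraries −55.0 to −47.6. The other digoxin libraries, sample 2 at 0.1 mg/kg (−0.60) and sample 1 at 1 mg/kg (9.12), lay between. These libraries held the highest Prl2c3 and the highest Prl2c2 value of the study, so results are also given without them. Of the markers of epithelium, Epcam and Cdh1 reached at most 0.149 FPKM and 0.643 FPKM in any sample. The keratin genes Krt8 and Krt19 reached 126 and 9.44 FPKM, both at 1 mg/kg, and Krt18 reached 63.01 FPKM with vehicle. Whether each sample is a different mouse is not in the labels, so errors and p-values cover the spread between the sequenced samples, which may be technical. In a whole tumour, more cells that make an RNA and more RNA per cell cannot be told apart.

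Prl2c2 was far higher in digoxin tumours. Its level was 106, 86.1 and 44.7 FPKM in samples 1 to 3 at 0.1 mg/kg and 148, 25.8 and 42.6 FPKM in samples 1 to 3 at 1 mg/kg, against 7.18, 5.13 and 2.51 FPKM in the vehicle samples. The lowest digoxin value lay above the highest vehicle value, so the groups did not overlap at either dose. The means were 78.8 ± 31.1 FPKM at 0.1 mg/kg, 72.1 ± 66.2 FPKM at 1 mg/kg and 4.94 ± 2.34 FPKM with vehicle (SD, n = 3 each). The ratio of means was 15.9 at 0.1 mg/kg and 14.6 at 1 mg/kg.

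Prl2c3 showed the wider range. It was measured at 167, 225 and 44.8 FPKM in samples 1 to 3 at 0.1 mg/kg and at 104, 25.9 and 51.8 FPKM in samples 1 to 3 at 1 mg/kg, against 3.34, 2.54 and 0.937 FPKM with vehicle. Again every digoxin sample lay above every vehicle sample. The means were 146 ± 92.1 FPKM at 0.1 mg/kg, 60.6 ± 39.7 FPKM at 1 mg/kg and 2.27 ± 1.22 FPKM with vehicle (SD, n = 3 each). The mean was 64.1 times that of vehicle at the lower dose and 26.6 times at the higher dose. At either dose 2 of 2 members thus lay above vehicle without overlap. Of the 13687 genes that passed the filter (1 FPKM or more in 3 or more samples), 32.3% did so with digoxin at 0.1 mg/kg and 25.2% with digoxin at 1 mg/kg. The members were chosen on these contrasts, so nothing is read from that comparison.

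**Figure D2:**
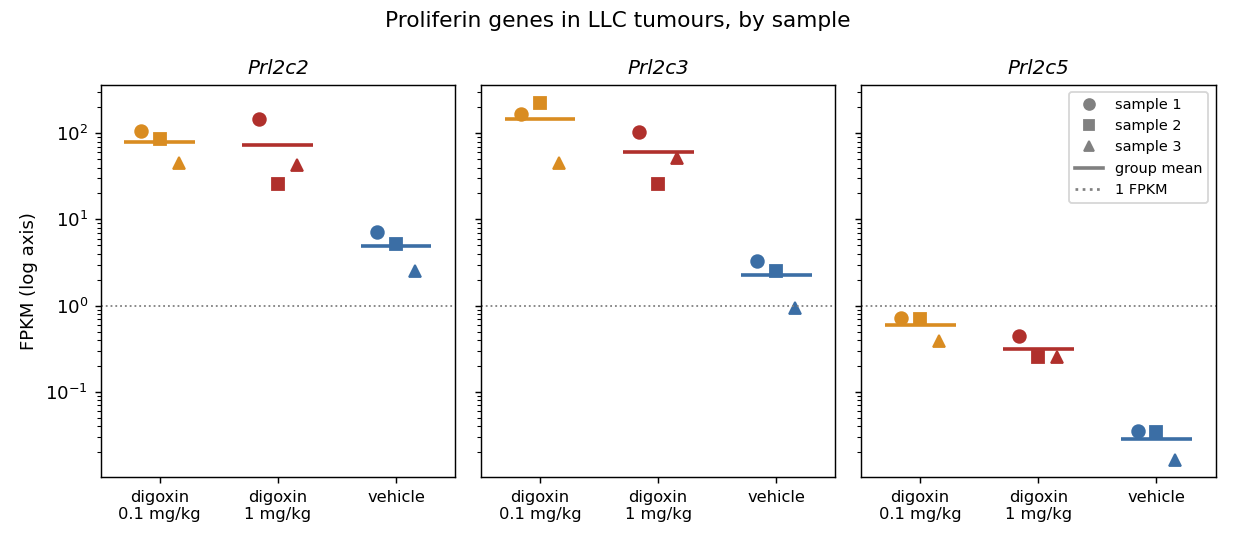
FPKM (vertical log axis) of Prl2c2, Prl2c3 and Prl2c5 in each sample of digoxin at 0.1 mg/kg, digoxin at 1 mg/kg and vehicle. Symbols are samples, bars are group means and the dotted line is 1 FPKM. For Prl2c2 and Prl2c3 every digoxin sample, down to 25.8 FPKM, lies above every vehicle sample, up to 7.18 FPKM, and Prl2c5 stays under 1 FPKM throughout.

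On the log2(FPKM + 1) scale the difference of Prl2c3 was 5.28 (SE 0.66) at 0.1 mg/kg and 4.10 (SE 0.66) at 1 mg/kg, each against vehicle. For Prl2c2 the differences were 3.74 (SE 0.61) at 0.1 mg/kg and 3.32 (SE 0.61) at 1 mg/kg. The added pseudocount of 1 understates the difference of Prl2c3, whose vehicle values were lowest. At 0.1 mg/kg, 0 of the 13687 genes had a larger rise than Prl2c3 and 15 had a larger one than Prl2c2, with falls not counted. At 1 mg/kg these numbers were 11 for Prl2c3 and 46 for Prl2c2.

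Between the doses the members overlapped. At 1 mg/kg against 0.1 mg/kg the log2 difference was −0.43 (SE 0.61) for Prl2c2 and −1.18 (SE 0.66) for Prl2c3. With all libraries the values overlapped in both genes, while 17% of all tested genes did not overlap between the doses and 0.0146% passed an adjusted p of 0.05 in limma. Within a dose the samples were far apart: the highest was 2.36 times the lowest for Prl2c2 and 5.03 times for Prl2c3 at 0.1 mg/kg. At 1 mg/kg the ratios of highest to lowest were 5.74 for Prl2c2 and 4.02 for Prl2c3. Among the vehicle samples they were 2.86 for Prl2c2, between its values at the doses, and 3.57 for Prl2c3, below its value at either dose.

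Without the libraries that lay between the groups the differences to vehicle were smaller and kept their sign. Prl2c2 then averaged 75.1 FPKM at 0.1 mg/kg and 34.2 FPKM at 1 mg/kg (2 samples each), against 4.94 FPKM with vehicle. Prl2c3 averaged 106 FPKM at 0.1 mg/kg and 38.9 FPKM at 1 mg/kg, against 2.27 FPKM with vehicle. The log2 differences to vehicle were 3.64 at 0.1 mg/kg and 2.61 at 1 mg/kg for Prl2c2, and 4.82 at 0.1 mg/kg and 3.60 at 1 mg/kg for Prl2c3. Between the doses the log2 differences were then −1.03 for Prl2c2 and −1.22 for Prl2c3, against −0.43 and −1.18 with all libraries. The doses still overlapped in Prl2c3, but no longer in Prl2c2, whose values were 25.8 and 42.6 FPKM at 1 mg/kg, against 105.6 and 44.7 FPKM at 0.1 mg/kg. With 2 samples per dose, this was not set beside the share over all genes, so nothing is read from it.

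The rank within a sample shows how prominent these RNAs were. Among 35321 genes ordered by FPKM, Prl2c3 stood at places 261, 188 and 1212 in the 0.1 mg/kg samples and at places 451, 2291 and 997 in the 1 mg/kg samples, against 9203, 10186 and 12744 in the vehicle samples. Prl2c2 stood at places 418, 525 and 1216 in the 0.1 mg/kg samples and at places 308, 2305 and 1278 in the 1 mg/kg samples, against 6541, 7917 and 10282 in the vehicle samples. At most 6.52% of the genes stood higher than either member in a digoxin sample, and at least 18.5% in a vehicle sample.

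Since reads can move between the genes, the pair was also summed. The summed level was 272, 311 and 89.5 FPKM at 0.1 mg/kg and 252, 51.7 and 94.5 FPKM at 1 mg/kg, against 10.5, 7.68 and 3.45 FPKM with vehicle. The means of the sums were 224 ± 119 FPKM at 0.1 mg/kg, 133 ± 105 FPKM at 1 mg/kg and 7.22 ± 3.56 FPKM with vehicle (SD, n = 3 each). The digoxin samples again lay wholly above the vehicle samples. In recovered reads, the pair took 14664, 17190 and 4750 reads at 0.1 mg/kg and 12789, 2569 and 4739 reads at 1 mg/kg, against 602, 453 and 208 reads with vehicle. Per 1000000 reads of a library this was 342, 400.3 and 110 (0.1 mg/kg) and 303, 63.3 and 117 (1 mg/kg), against 12.4, 9.05 and 4.01 with vehicle.

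The split of these reads between the genes was not the same in all samples. Prl2c3 held 66.4% (95% Wilson interval 65.6 to 67.1), 76.6% (75.9 to 77.2) and 55.6% (54.2 to 57.0) of the pair's reads in samples 1 to 3 at 0.1 mg/kg. At 1 mg/kg its share was 46.7% (45.8 to 47.6), 55.6% (53.7 to 57.5) and 60.3% (58.9 to 61.7). With vehicle it was 36.7% (33.0 to 40.6), 38.2% (33.8 to 42.7) and 31.7% (25.8 to 38.3). Every digoxin share lay above every vehicle share, and the digoxin doses overlapped. The group means were 66.2 ± 10.5% at 0.1 mg/kg, 54.2 ± 6.90% at 1 mg/kg and 35.5 ± 3.38% with vehicle (SD, n = 3 each). Per unit of length, Prl2c3 was 1.73 ± 0.817 times Prl2c2 at 0.1 mg/kg and 0.974 ± 0.259 times at 1 mg/kg, against 0.444 ± 0.0639 times with vehicle. The intervals cover counting error only, and the assignment of shared reads, whose part in the split was not tested, is outside them. The extreme samples were again the libraries between the groups: sample 2 at 0.1 mg/kg had the highest share and sample 1 at 1 mg/kg the lowest of the digoxin samples.

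**Figure D3:**
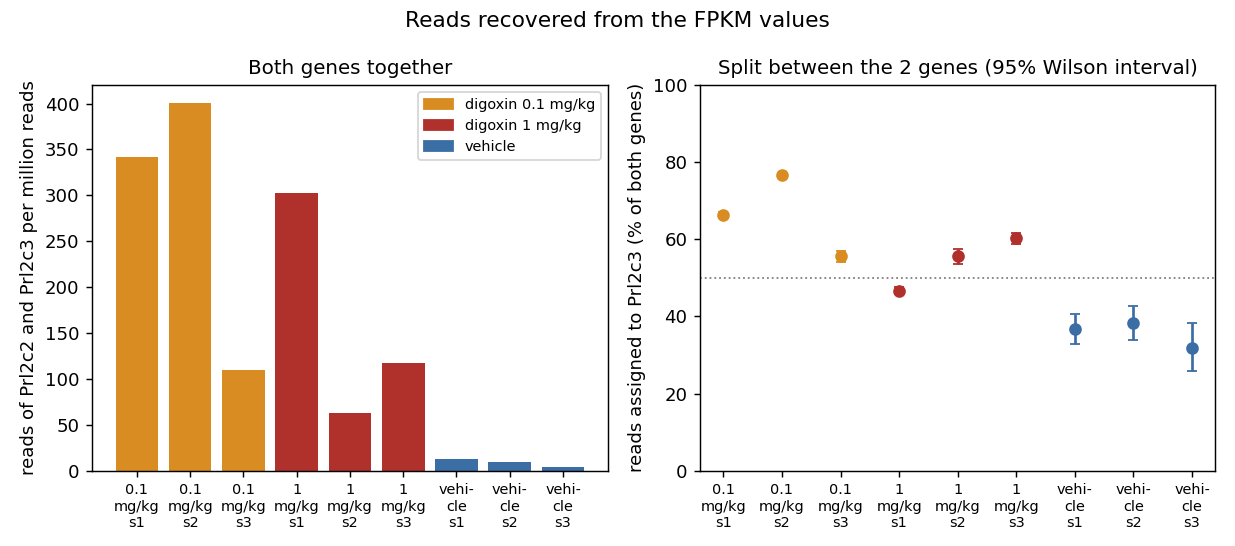
Left, reads of Prl2c2 and Prl2c3 together per 1000000 reads in each sample (s1 to s3 of digoxin at 0.1 mg/kg, digoxin at 1 mg/kg and vehicle). Right, the share of these reads assigned to Prl2c3 in percent, with 95% Wilson intervals and a dotted line at equal shares. Digoxin samples reach 63.3 to 400.3 of these reads against at most 12.4 with vehicle, and their Prl2c3 shares lie between 46.7% and 76.6% against at most 38.2% with vehicle.

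Prl2c5, the more distant proliferin, was measured near the limit of the data. It had 36, 35 and 20 reads at 0.1 mg/kg and 22, 12 and 12 reads at 1 mg/kg, against 2, 2 and 1 reads with vehicle. These are 0.713, 0.693 and 0.392 FPKM at 0.1 mg/kg and 0.442, 0.251 and 0.252 FPKM at 1 mg/kg, against 0.0349, 0.0340 and 0.0164 FPKM with vehicle. The groups did not overlap, and the gene stayed below the 1 FPKM needed to be tested. For every 1000 reads of the pair there were 1.72 to 4.67 reads of Prl2c5 with digoxin and 3.32 to 4.81 with vehicle. Prl2c5 reads were thus a few per 1000 of the pair's reads in all groups, and whether they came from Prl2c5 RNA or from Prl2c2 and Prl2c3 reads was not tested.

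The pseudogene Gm7040 behaved alike. It had 28, 66 and 11 reads at 0.1 mg/kg and 46, 7 and 12 reads at 1 mg/kg, and 0 reads in each vehicle sample, where 3 reads per library would be the limit that a count of 0 allows. Its highest samples in each dose, sample 2 at 0.1 mg/kg and sample 1 at 1 mg/kg, were those with the highest Prl2c3 and the highest Prl2c2. Because Gm7040 shares whole windows with both genes, reads from those windows cannot be told apart from theirs.

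The rest of the prolactin family was close to silent. Of 26 other family symbols, 13 had a value in the table, and 12 of these stayed below the testing filter. Apart from Prl2c5 and Prl8a9 (2.62 FPKM in sample 1 at 0.1 mg/kg and at most 0.806 FPKM elsewhere), these 10 genes never passed 0.241 FPKM. Gh, the growth hormone gene, was the 1 tested family member. It was measured at 2.33, 1.08 and 2.92 FPKM at 0.1 mg/kg and 0.659, 2.77 and 1.43 FPKM at 1 mg/kg, against 0.0477, 0.0927 and 0 FPKM with vehicle. The groups did not overlap. Gh rose by a log2 difference of 1.52 (SE 0.31) at 0.1 mg/kg and 1.24 (SE 0.31) at 1 mg/kg, with Benjamini-Hochberg adjusted p-values in limma of 0.00661 and 0.0129. It passed the filter through digoxin samples only, so it could be tested only as a gene higher with digoxin. With no filter the Gh calls held, and 2 family genes of the list passed at 0.1 mg/kg (2 higher) and 3 at 1 mg/kg (2 higher, 1 lower).

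Genes on both sides of the cluster on chromosome 13 were read for comparison. Of the nearest on the Prl2c3 side, Ero1lb had no value under this symbol, and Edaradd averaged at most 0.148 FPKM in any group and was not tested. Beyond them Lgals8, which encodes a galectin, lies at chr13:12439415-12464944 and averaged 18.1 ± 0.867 FPKM at 0.1 mg/kg and 15.6 ± 0.999 FPKM at 1 mg/kg, against 16.05 ± 0.544 FPKM with vehicle (SD, n = 3 each). It did not pass the test at either dose (limma, adjusted p = 0.110 at 0.1 mg/kg and 0.701 at 1 mg/kg). On the other side, Gpr137b, a lysosomal membrane protein gene at chr13:13357620-13394014, averaged 21.02 ± 5.84 FPKM at 0.1 mg/kg and 20.5 ± 8.59 FPKM at 1 mg/kg, against 8.34 ± 0.492 FPKM with vehicle. It rose by log2 1.20 at 0.1 mg/kg and 1.14 at 1 mg/kg (limma, adjusted p = 0.00920 and 0.0101). Nid1, which encodes a basement membrane protein and follows Gpr137b, did not pass at either dose (adjusted p = 0.130 at 0.1 mg/kg and 0.0577 at 1 mg/kg). Beside the log2 differences of 5.28 and 4.10 of Prl2c3, those of the 3 tested genes nearby were at most 1.20.

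The receptors and signalling genes that prolactin-family hormones use moved in both directions. Prlr, the prolactin receptor, had values of 0 in 7 samples and at most 0.00803 FPKM. Igf2r, which encodes the proliferin receptor, was 10.6, 22.9 and 8.28 FPKM at 0.1 mg/kg and 15.3, 6.78 and 6.76 FPKM at 1 mg/kg, against 29.1, 40.0 and 36.9 FPKM with vehicle. Every digoxin sample was lower than every vehicle sample, and the digoxin libraries between the groups had the highest Igf2r of their doses. Igf2r fell, with a log2 difference of −1.40 (SE 0.38) at 0.1 mg/kg and −1.86 (SE 0.38) at 1 mg/kg and limma adjusted p-values of 0.0201 and 0.00574. The call at 0.1 mg/kg was lost without sample 1 or 3 of that dose or sample 2 or 3 of vehicle (adjusted p up to 0.0743).

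Of the 11 receptor and JAK-STAT genes 8 were tested. At 0.1 mg/kg 3 rose and 2 fell, and at 1 mg/kg 2 rose and 2 fell, with median log2 differences of 0.18 and 0.28 beside 0.02 and −0.04 over all tested genes. Of all tested genes, 42.2% were called at 0.1 mg/kg (21.6% higher, 20.7% lower) and 45.9% at 1 mg/kg (20.7% higher, 25.2% lower). The split depended on the scaling: at 0.1 mg/kg 2952 genes were higher and 2829 lower, against 2368 and 3790 after rescaling to TPM and 2403 and 3552 after quantile normalisation. Jak2, the kinase of these receptors, rose by log2 0.64 at 0.1 mg/kg and 0.62 at 1 mg/kg (limma, adjusted p = 0.0127 and 0.0124). Stat5b, which encodes a transcription factor downstream of it, fell, with log2 differences of −0.58 at 0.1 mg/kg and −0.65 at 1 mg/kg (limma, adjusted p = 0.00249 and 0.00137). Its close relative Stat5a did not pass the test (log2 0.22 and 0.27, adjusted p in limma 0.303 and 0.199). Socs3, a feedback inhibitor, rose by log2 0.86 at 0.1 mg/kg, a call lost without vehicle sample 2 or 3 (adjusted p 0.0353, up to 0.115), and by 1.30 at 1 mg/kg (adjusted p = 0.00614). Without the libraries between the groups 8 genes of this list passed at the lower dose and 7 at the higher dose, in a fit in which 61.5% and 61.3% of all tested genes passed.

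The AP-1 genes, whose products bind the motif shown in the Prl2c3 window, mostly rose. All 12 were tested, of which 7 rose and 1 fell at 0.1 mg/kg, and 9 rose and 0 fell at 1 mg/kg. Their median log2 difference was 0.87 at 0.1 mg/kg and 1.19 at 1 mg/kg, beside 0.02 and −0.04 over all tested genes. Of all tested genes 21.6% rose and 20.7% fell at 0.1 mg/kg, and 20.7% rose and 25.2% fell at 1 mg/kg. Fosb was measured at 40.9, 18.6 and 23.7 FPKM at 0.1 mg/kg and 189, 81.7 and 104 FPKM at 1 mg/kg, against 0.688, 0.509 and 0.529 FPKM with vehicle. It passed the filter through digoxin samples only, so against vehicle it could be tested only as a gene higher with digoxin. The groups did not overlap, and the higher dose had the higher Fosb, whereas Prl2c3 averaged 60.6 FPKM at 1 mg/kg and 146 FPKM at 0.1 mg/kg. Between the doses Fosb did not pass the test (limma, adjusted p = 0.0926). Fos rose by log2 2.88 at 0.1 mg/kg and 4.76 at 1 mg/kg (limma, adjusted p = 0.00163 and 2.5e-04). Fosl1 was the 1 gene of the list that fell at 0.1 mg/kg, with a log2 difference of −1.10 and a limma adjusted p of 0.0212. That call was lost without any 1 of the vehicle samples or without sample 1 or 3 of the dose (adjusted p up to 0.0788). At 1 mg/kg, sample 1, which had the highest Prl2c2, also had the highest Fos (477 FPKM), Fosb and Jun (259 FPKM). At 0.1 mg/kg, sample 1 had the highest Prl2c2 (106 FPKM), Fos (152 FPKM), Fosb and Jun (101 FPKM) of its dose. Sample 2 of that dose, which had the highest Prl2c3, had the lowest Fos (58.2 FPKM) and Fosb. A link between these genes was not tested.

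Of the glucocorticoid receptor and its targets 7 of 8 genes were tested. Nr3c1, the receptor gene, averaged 8.87 ± 0.0903 FPKM at 0.1 mg/kg and 10.4 ± 0.259 FPKM at 1 mg/kg, against 10.5 ± 1.20 FPKM with vehicle (SD, n = 3 each), and did not pass the test. At 0.1 mg/kg 3 genes of the list rose and 1 fell, and at 1 mg/kg 3 rose and 0 fell, with median log2 differences of 0.44 and 0.66. Among all tested genes 42.2% were called at 0.1 mg/kg and 45.9% at 1 mg/kg. Tsc22d3, which encodes the glucocorticoid-induced leucine zipper protein, rose by log2 1.49 at 0.1 mg/kg and 2.10 at 1 mg/kg (limma, adjusted p = 0.00333 and 8.1e-04). Per1, a clock gene, rose by log2 1.48 at 0.1 mg/kg and 2.15 at 1 mg/kg (limma, adjusted p = 7.6e-04 and 2.1e-04). Sgk1, a kinase gene, rose by log2 1.17 at 0.1 mg/kg and 2.81 at 1 mg/kg (limma, adjusted p = 0.0331 and 0.00104). The Sgk1 call at 0.1 mg/kg was lost without any 1 of the vehicle samples or without sample 1 or 3 of the dose (adjusted p up to 0.110). Klf9, which encodes a transcription factor, was the gene that fell at 0.1 mg/kg (log2 difference −0.71, limma adjusted p = 0.00477). Fkbp5, a widely used glucocorticoid target, did not pass at either dose (limma, adjusted p = 0.239 and 0.0872). Without the libraries between the groups 6 genes of this list passed at 0.1 mg/kg and 5 at 1 mg/kg (all tested genes 61.5% and 61.3%).

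**Figure D4:**
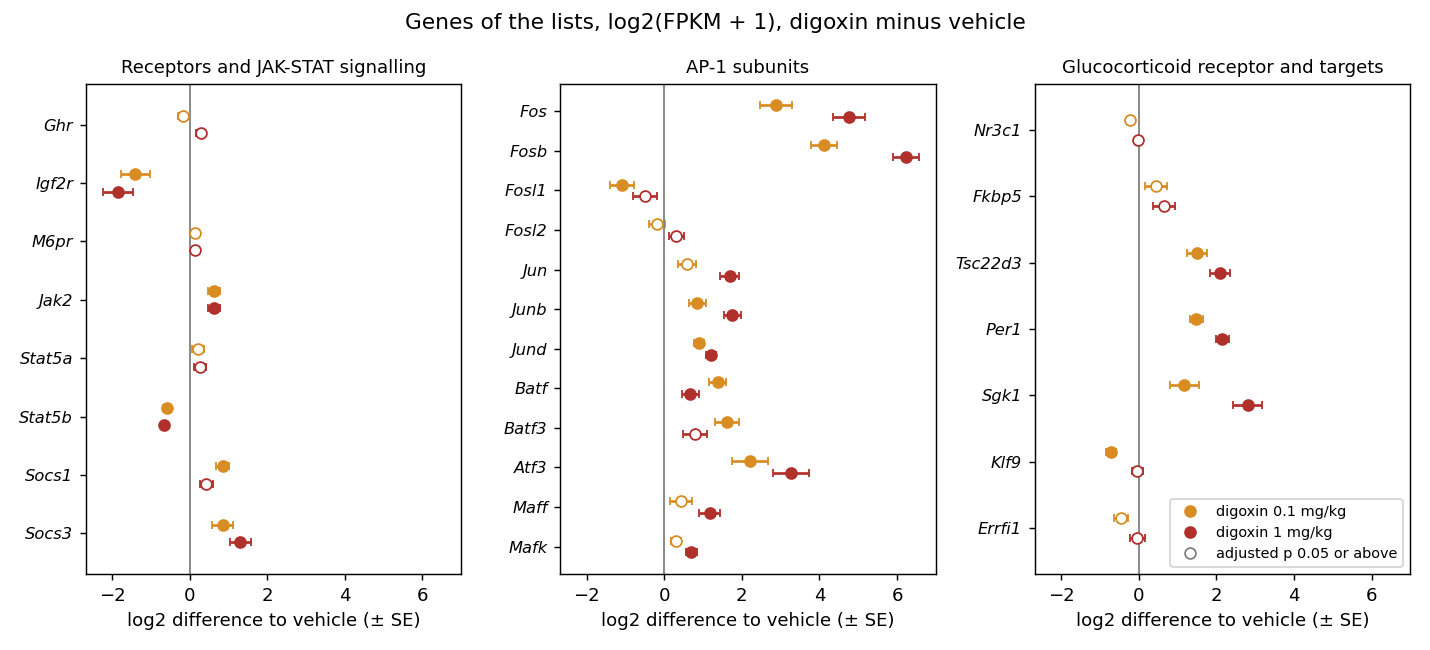
Log2 differences to vehicle on the log2(FPKM + 1) scale (horizontal axis, bars ± SE) of the tested receptor and JAK-STAT genes, AP-1 genes and glucocorticoid receptor genes, for digoxin at 0.1 mg/kg and 1 mg/kg. Filled points passed a limma adjusted p of 0.05 and open points did not. Fosb and Fos lie farthest to the right and Igf2r farthest to the left.

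Growth factors and their receptors, the known inducers of proliferins in cultured mouse fibroblasts, were split. Of 18 genes 14 were tested, of which 3 rose and 4 fell at 0.1 mg/kg, and 6 rose and 5 fell at 1 mg/kg. Calls were made for 42.2% of all tested genes at the lower dose and 45.9% at the higher dose. The median log2 difference of the list was −0.27 at the lower dose and 0.11 at the higher dose. Without the libraries between the groups 11 genes passed at the lower dose and 12 at the higher dose, where 61.5% and 61.3% of all tested genes did. Tgfa, an EGF receptor ligand, rose by log2 0.94 at 0.1 mg/kg and 0.98 at 1 mg/kg (limma, adjusted p = 0.00338 and 0.00236). With vehicle Tgfa stayed under 1 FPKM. It passed the filter through digoxin samples only, so it could be tested only as a gene higher with digoxin. Egfr, which encodes the receptor of Tgfa, fell to 1.03 ± 1.04 FPKM at 0.1 mg/kg and 0.718 ± 0.468 FPKM at 1 mg/kg, against 5.38 ± 0.933 FPKM with vehicle (SD, n = 3 each). Its log2 differences were −1.76 at 0.1 mg/kg and −1.92 at 1 mg/kg (limma, adjusted p = 0.00453 and 0.00270). Pdgfa, a platelet-derived growth factor gene, rose by log2 0.75 at 0.1 mg/kg and 0.58 at 1 mg/kg (limma, adjusted p = 0.00354 and 0.00793). Pdgfra, which encodes a receptor for it, fell, with log2 differences of −0.69 at 0.1 mg/kg and −0.82 at 1 mg/kg (limma, adjusted p = 0.00673 and 0.00289). Ereg, another EGF receptor ligand gene, rose by log2 0.91 at 0.1 mg/kg, where the limma adjusted p of 0.0488 was up to 0.156 in 7 of 9 fits without 1 library, and by 2.16 at 1 mg/kg (adjusted p = 0.00156).

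Because proliferins are placental hormones, trophoblast genes were read beside them. Among the trophoblast giant cell markers, Tpbpa reached at most 0.0222 FPKM. Prl3d1, Prl3b1, Prl7d1 and Ctsq had no value under these symbols among the 35321 genes, each of which was above 0 in some sample. The summed level of this marker list, of which 1 of 6 genes was tested, was nearly all Hand1, a transcription factor gene, with 9.93, 1.00 and 2.62 FPKM at 0.1 mg/kg and 1.51, 2.999 and 5.33 FPKM at 1 mg/kg, against 0.0309, 0 and 0 FPKM with vehicle. Hand1 passed the filter through digoxin samples only, so it could be tested only as a gene higher with digoxin. It rose by log2 2.09 at 0.1 mg/kg and 1.98 at 1 mg/kg (limma, adjusted p = 0.0180 and 0.0199). With no filter the call was lost at both doses (limma, adjusted p = 0.0516 and 0.0566). In the filtered fit it was lost without vehicle sample 2 or 3 at 0.1 mg/kg (adjusted p up to 0.0550). At 1 mg/kg it was lost without any 1 vehicle sample or without sample 2 or 3 of the dose (adjusted p up to 0.0703). Hand1 and the members were not ordered alike over the samples: sample 2 at 0.1 mg/kg had the lowest Hand1 and the highest Prl2c3 of the digoxin samples, while sample 1 at 0.1 mg/kg had the highest Hand1 of the study and the highest Prl2c2 of its dose. Of the 19 placental genes 5 were tested, of which 2 rose and 1 fell at 0.1 mg/kg and 2 rose and 2 fell at 1 mg/kg. Their median log2 differences were −0.55 and −0.69. Like Hand1, Eomes passed the filter through digoxin samples only, with at most 0.193 FPKM with vehicle. Esx1 passed it through vehicle samples only, with at most 0.786 FPKM with digoxin. Each could thus be tested only as a gene higher on that side. Over all tested genes 42.2% were called at 0.1 mg/kg and 45.9% at 1 mg/kg. Without the libraries between the groups 5 genes passed at either dose, beside 61.5% and 61.3% of all tested genes. Esx1, a placental homeobox gene, fell to 0.309 ± 0.413 FPKM at 0.1 mg/kg and 0.171 ± 0.275 FPKM at 1 mg/kg, against 7.89 ± 0.697 FPKM with vehicle (SD, n = 3 each).

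Marker levels of other cell types were read in the same way. Beside the counts below, 42.2% of all tested genes were called at 0.1 mg/kg (21.6% higher, 20.7% lower). At 1 mg/kg it was 45.9% (20.7% higher, 25.2% lower). The summed fibroblast markers (7 of 7 tested) ranged from 220 to 315 FPKM at 0.1 mg/kg and 228 to 324 FPKM at 1 mg/kg, against 369 to 398 FPKM with vehicle. Of these, 3 rose and 2 fell at 0.1 mg/kg and 1 rose and 3 fell at 1 mg/kg, and 0 were at 0. The summed neutrophil markers (5 of 5 tested) ranged from 123 to 746 FPKM at 0.1 mg/kg and 485 to 1141 FPKM at 1 mg/kg, against 49.3 to 177 FPKM with vehicle, with 3 of them called higher at the lower dose and 5 at the higher dose. The summed simple epithelial markers (3 of 6 tested), mostly Krt8 or Krt18, ranged from 81.9 to 109 FPKM at 0.1 mg/kg and 112 to 137 FPKM at 1 mg/kg, against 46.2 to 67.9 FPKM with vehicle, with 2 genes higher and 1 lower at each dose. The sum hides opposite directions. Krt8 was 58.7 to 105 FPKM at 0.1 mg/kg and 103 to 126 FPKM at 1 mg/kg, against 1.70 to 4.13 FPKM with vehicle. Krt18 was 0.932 to 16.8 FPKM at 0.1 mg/kg and 1.03 to 8.84 FPKM at 1 mg/kg, against 43.1 to 63.0 FPKM with vehicle. Of the skeletal muscle markers 4 of 8 rose at the lower dose and 3 of 8 at the higher dose, and of the tested T cell markers 4 of 5 rose at the lower dose and 1 fell at the higher dose. Krt19 (epithelium), Ly6g (neutrophil) and Myh1 (muscle) stayed under 1 FPKM in every vehicle sample. They passed the filter through digoxin samples only, so they could be tested only as genes higher with digoxin. Of the tested endothelial (6), adipocyte (2) and epidermal (1) markers 0 were called at either dose. The summed macrophage markers overlapped between the groups, at 2150 to 3208 FPKM (0.1 mg/kg), 1516 to 2422 FPKM (1 mg/kg) and 2177 to 2464 FPKM (vehicle). Of the 6 macrophage markers 3 rose and 0 fell at the lower dose, and 2 rose and 2 fell at the higher dose. The part of these cell types in the levels of Prl2c2 and Prl2c3 was not tested.

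The genes whose pattern was most like that of the pair were found by Pearson's r of log2(FPKM + 1) with the mean of Prl2c2 and Prl2c3 over the 9 samples, among 11669 tested genes with established symbols. Most of this likeness is the contrast between digoxin and vehicle, and the samples form separate clusters, so r is a measure of likeness with no test. The 8 closest were Grem1 (r = 0.98), Tmt1b, Nppb, Serpinb9g, Acsbg1, Glrx, Slfn1 and Ifi209 (r = 0.97). Grem1, which encodes a secreted BMP antagonist, had 15.9, 14.97 and 11.4 FPKM at 0.1 mg/kg and 16.5, 9.39 and 9.51 FPKM at 1 mg/kg, against 3.81, 5.09 and 3.03 FPKM with vehicle. Nppb, the B-type natriuretic peptide gene, had 10.7, 14.2 and 8.16 FPKM at 0.1 mg/kg and 15.7, 7.29 and 7.14 FPKM at 1 mg/kg, against 1.68, 0.742 and 0.470 FPKM with vehicle. Within each dose Nppb was highest in the sample with the highest sum of the pair, sample 2 at 0.1 mg/kg and sample 1 at 1 mg/kg. Prl2c2 and Prl2c3 themselves had r = 0.98 with each other over the 9 samples, and they share read windows.

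Within the 6 digoxin samples, without vehicle but with the libraries that lay between the groups, r between Prl2c2 and Prl2c3 was 0.84. The 5 genes closest to their mean there were Dpp3 (r = 0.98), Rapgef1, Stat6, Tm9sf4 and Snord89 (r = 0.97). Dpp3, which encodes a peptidase, ranged over these samples by 1.14 times, Stat6, a transcription factor gene, by 1.07 times and Snord89, a small nucleolar RNA gene, by 1.85 times. Over the same samples Prl2c3 ranged from 25.9 to 225 FPKM and Prl2c2 from 25.8 to 148 FPKM. The level of Dpp3 was 12.97 FPKM at 0.1 mg/kg and 12.4 FPKM at 1 mg/kg, against 15.8 FPKM with vehicle, the opposite direction to that of the pair.

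**Figure D5:**
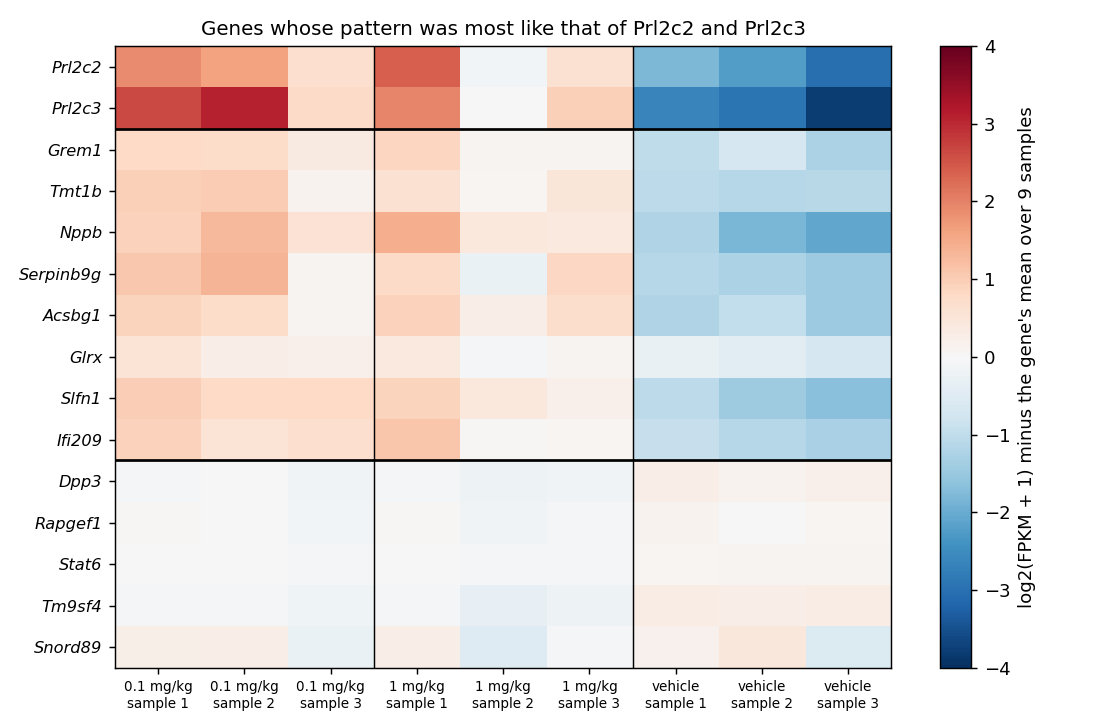
Log2(FPKM + 1) minus each gene's mean over 9 samples (colour) for Prl2c2 and Prl2c3 (top), the 8 genes with the highest r over 9 samples (middle) and the 5 with the highest r over the 6 digoxin samples (bottom). Columns are samples 1 to 3 of digoxin at 0.1 mg/kg, digoxin at 1 mg/kg and vehicle. The middle genes are higher in the digoxin columns with a smaller range than Prl2c3. The bottom genes also have a smaller range, the widest in the digoxin columns being that of Snord89.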

How the data were processed

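Per the labels, poly(A) RNA of the tumours was sequenced in 150-base pairs. The deposited FPKM were made by the authors with fastp 0.22.0 and HISAT2 2.2.1, per the submitters' processing notes. The sources used here name no counter and do not say how it treated reads that fit several genes. Whole reads, depths and gene lengths were recovered from the spacing of the values (99.95% of tested genes whole in every sample within 0.03 reads). Whether 1 read stands for a read or a pair is not stated.

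Values were tested as log2(FPKM + 1) for 13687 genes with 1 FPKM or more in 3 or more of 9 samples, with limma 3.58.1 (R 4.3.3, trend, 1 mean per group, all 9 samples, two-sided, Benjamini-Hochberg adjustment over all 13687 genes, threshold 0.05). The step was tested on simulated data. Sequences came from GENCODE M21 and RefSeq and were aligned with edlib 1.3.9.post1; other steps used Python 3.11.15. The members, gene lists and the rule for named genes were chosen with earlier results of these data known. The rule named all tested genes of lists with up to 12 symbols found, otherwise the 5 with the smallest p, and the 8 and 5 genes most like the pair. Alternatives were other pseudocounts (0.1, 0.01), filters, normalisations, fits, a replicate block and libraries left out. Same-numbered samples of different groups did not deviate together (r above 0.1 in 3 of 9 pairs), so the numbers were not taken as pairs.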

Additional observations from a re-analysis of the deposited data

How the results depend on the processing

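Under the alternatives, Prl2c2 and Prl2c3 stayed higher with digoxin. The log2 difference of Prl2c3 was 4.82 to 5.97 at the lower and 3.60 to 4.71 at the higher dose, and that of Prl2c2 3.41 to 4.10 at the lower and 2.61 to 3.85 at the higher dose. Between the doses Prl2c2 ranged from −1.14 to 0.10, with the positive value without sample 2 at 1 mg/kg, and Prl2c3 from −1.88 to −0.69. The mean summed FPKM of the pair was 181 to 292 at the lower dose, 73.1 to 173 at the higher dose and 5.56 to 9.10 with vehicle when 1 library was left out. The count of genes that passed at 1 mg/kg against vehicle was 6277, and 4159 with a mean of at least 5 FPKM. Without 1 library it ranged from 4129 to 7373, and at 0.1 mg/kg, where it was 5781, from 3414 to 7074. Between the doses 2 genes passed. That count was 0 with pseudocounts of 0.1 or 0.01, with only the 2 groups compared and with the replicate block, 1 with a mean of at least 5 FPKM or without trend, 10 with no filter, 465 without the pair of libraries between the groups, and 0 to 133 without 1 library. The replicate block gave 4967 calls at 0.1 mg/kg and 5541 at 1 mg/kg against vehicle. Among the named genes it ended the calls of Batf and Peg10 at 1 mg/kg and added Jun at 0.1 mg/kg and Ghr at 1 mg/kg. Of the growth factor list 10 genes passed with it at 1 mg/kg, against 11 without it. With no filter the calls of Hand1 were lost at both doses. So were those of Igf2r, Fosl1, Sgk1, Socs3 and Ereg at 0.1 mg/kg and of Batf and Peg10 at 1 mg/kg. Of 2250 values of named genes under an alternative, 61 fell out of the calls, 59 came in and 0 turned sign while called. Rescaling to TPM put the median of all genes at −0.12 at 1 mg/kg against vehicle. The causes were not tested. Depth limits Prl2c5 and Gm7040, with at most 36 and 66 reads in a sample.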
